A study of Mus musculus with 6 samples.

Results

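The kinesin motor genes were taken as every protein-coding gene of the count table whose name starts with Kif followed by a digit or with Kifc, which gave 43 of 57010 genes. They were split, by name, into 12 mitotic motors (Kif2c, Kif4, Kif11, Kif14, Kif15, Kif18a, Kif18b, Kif20a, Kif20b, Kif22, Kif23 and Kifc1) and the other 31 kinesins, here called transport motors after the role of most of them. The rule itself uses names alone, but the members were chosen with earlier results of these data known. The rule leaves out Cenpe, a kinesin with another name. Expression was read in 6 poly(A) RNA libraries of RAW 264.7, an established mouse macrophage-like cell line. All cells had received lipopolysaccharide (LPS), a bacterial product that drives an inflammatory state, and then extracellular vesicles, the membrane-bound particles that cells release. The vesicles of 3 libraries came from normoxic tendon stem cells (normoxic-EV) and those of the other 3 from such cells after hypoxic preconditioning (hypoxic-EV). The sources used here give no vesicle dose, exposure time, oxygen level or stem cell species. All libraries come from 1 cell line, LPS was shared by both groups, and vesicle-free cells were not analysed here: each difference below is between the 2 kinds of vesicle. No label states that replicates were separate cultures, and p-values then reflect only how these libraries spread, which may be technical.

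Kinesins are motor proteins that use ATP to move along microtubules or to take their ends apart. One set builds the mitotic spindle, moves chromosomes and closes the cell at cytokinesis, and many genes of that set are transcribed mainly in G2 and M phase. Other kinesins carry vesicles, mitochondria, endosomes and RNA through the cytoplasm of dividing and non-dividing cells alike, or act at cilia and microtubule tips. In macrophages such carriers are known to spread lysosomes towards the cell edge.

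All 12 mitotic motors rose in the hypoxic-EV libraries, by 1.82-fold (Kif15) to 2.46-fold (Kif2c), and calls among the transport motors went in both directions. Of the 34 kinesins with enough counts to test, 18 were called higher, 7 lower and 9 were not called. The mitotic motors took 12 of the 18 higher calls, with a median log2 fold change of 1.02 (range 0.86 to 1.30). Of the 22 transport motors tested, 6 were higher, 7 lower and 9 not called, and their median was -0.08. Over all 13303 genes tested, 22.7% were called higher and 21.5% lower, with a median of -0.001. The transport motors' shares were 27.3% and 31.8%, and 4 of their 7 lower calls did not hold under all of the alternative settings given below. A call here is an adjusted p under 0.05 in edgeR's quasi-likelihood F-test with Benjamini-Hochberg adjustment over those 13303 genes, and each log2 fold change is hypoxic-EV over normoxic-EV, printed ± its standard error where one follows. In each of the 12 mitotic motors the 3 hypoxic-EV libraries lay above the 3 normoxic-EV libraries, which held for 26.6% of all genes tested and for 6 of the 22 transport motors. In RNA from bulk culture, a change in the number of dividing cells and a change in RNA per cell cannot be told apart.

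**Figure D1:**
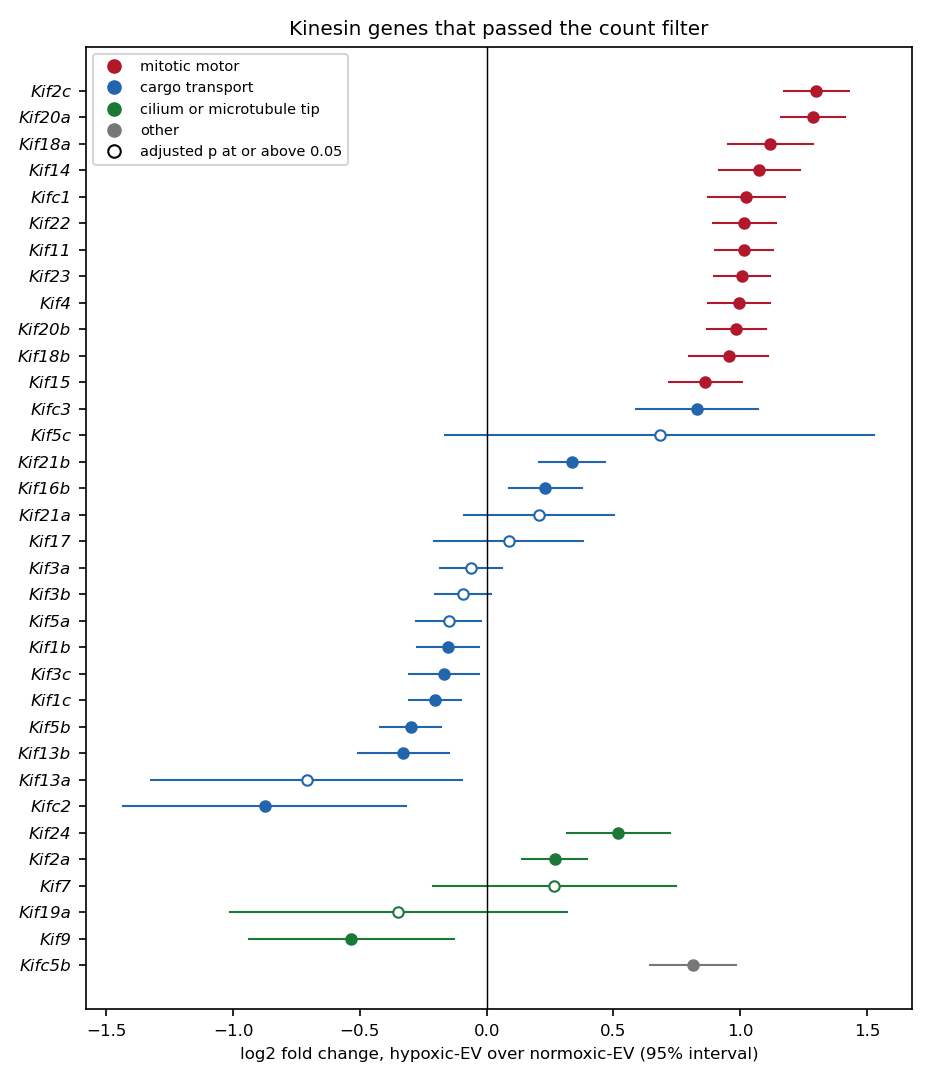
Log2 fold change (hypoxic-EV over normoxic-EV, x axis) of each kinesin that passed the count filter, coloured by role, with bars for the 95% confidence interval; filled points passed an adjusted p of 0.05. The 12 mitotic motors lie between 0.86 and 1.30, above each of the transport motors, which run from -0.88 to 0.83.

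Promoters of G2 and M phase genes often carry a cell cycle homology region (CHR), bound by the MuvB complex with B-Myb or FOXM1, downstream of CCAAT boxes bound by NF-Y. The letters TTTGAA and TTCGAA (CHR) and CCAAT were therefore searched on both strands, from 250 bases before to 50 after each gene's start, in RefSeq promoter sequences of build GRCm38.p6. A CHR and a CCAAT match can share a base where they adjoin, and TTCGAA reads the same on both strands. The count files use build GRCm39, so these positions are not comparable with coordinates of the files. Windows were found for 33 of the 43 members, among them 11 of the 12 mitotic motors (all but Kif20a). The 40 bases from the 6th after the start were looked up in GENCODE M21 transcripts of the same gene. They were found for 29 of 37 kinesin windows and 8 of 11 mitotic windows. Kif11, Kif23 and Kif2c were the mitotic windows without such a match, so their starts are less sure. A match can lie anywhere in a transcript, also in a later exon, so it does not by itself place the start. The bases before the starts of Kif14, Kif27 and a Kif1a window resemble the end of an intron, so these starts are less sure too. The 6 stretches below of 120 bases, each ending just before the start, show what the 2 sets look like: Kif11, Kif15 and Kif22 with a CHR near the start, Kif18a with neither motif, and the transport motors Kif24 and Kif3b with and without a CHR. Capitals mark every CHR and CCAAT match, read 5′ to 3′ on the gene's strand, so ATTGG is CCAAT on the other strand.

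The stretches lie at Kif11 chr19:37376262-37376381 (+ strand), Kif15 chr9:122950961-122951080 (+ strand), Kif22 chr7:127042421-127042540 (- strand), Kif18a chr2:109280618-109280737 (+ strand), Kif24 chr4:41464849-41464968 (- strand) and Kif3b chr2:153291296-153291415 (+ strand).
Kif11: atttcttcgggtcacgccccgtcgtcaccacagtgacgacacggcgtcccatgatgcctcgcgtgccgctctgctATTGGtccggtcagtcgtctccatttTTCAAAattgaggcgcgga
Kif15: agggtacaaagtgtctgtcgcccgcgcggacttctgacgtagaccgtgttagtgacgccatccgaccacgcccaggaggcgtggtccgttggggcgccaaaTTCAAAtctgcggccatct
Kif22: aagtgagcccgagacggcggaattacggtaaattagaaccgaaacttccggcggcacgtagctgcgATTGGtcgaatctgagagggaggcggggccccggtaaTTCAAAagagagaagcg
Kif18a: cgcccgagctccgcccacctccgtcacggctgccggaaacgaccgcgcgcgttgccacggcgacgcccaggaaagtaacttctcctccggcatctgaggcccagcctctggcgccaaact
Kif24: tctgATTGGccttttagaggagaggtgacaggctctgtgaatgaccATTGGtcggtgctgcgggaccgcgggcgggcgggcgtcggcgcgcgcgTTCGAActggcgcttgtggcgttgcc
Kif3b: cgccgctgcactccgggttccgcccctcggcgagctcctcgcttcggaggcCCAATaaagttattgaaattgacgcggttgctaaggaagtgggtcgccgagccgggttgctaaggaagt

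A CHR was present in 10 of the 11 mitotic windows (90.9%), all but Kif18a, against 19.2% of all 32851 windows in the table. Among the windows of transport motors it was present in 5 of 26 (19.2%), and in 2 of the 18 windows whose gene passed the count filter (Kif24 and Kifc5b). In 8 of the 11 mitotic windows a CHR began within 30 bases of the start, from -19 in Kif11 and Kif15 and -17 in Kif22 to +20 in Kif4. The same held for 3 windows of transport motors and for 3.4% of all windows. In Kif14 and Kif2c the only CHR matches lay farther off, at -228 and -103. In Kif14 the CHR lies before the CCAAT match at -92, the reverse of the order described above. The starts of Kif11, Kif14, Kif23, Kif2c, Kif27 and a Kif1a window are less sure, and so are the matches and positions counted in them. CCAAT was in 7 mitotic windows (63.6%), 10 windows of transport motors (38.5%) and 37.4% of all windows. Both motifs stood together in 7 mitotic windows (63.6%), in 4 of the transport motors (15.4%) and in 7.52% of all windows. Kif18a, with neither motif in its window, rose 2.17-fold, within the range of the mitotic motors that hold a CHR. A match is a description of the letters and not a measured binding site.

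**Figure D2:**
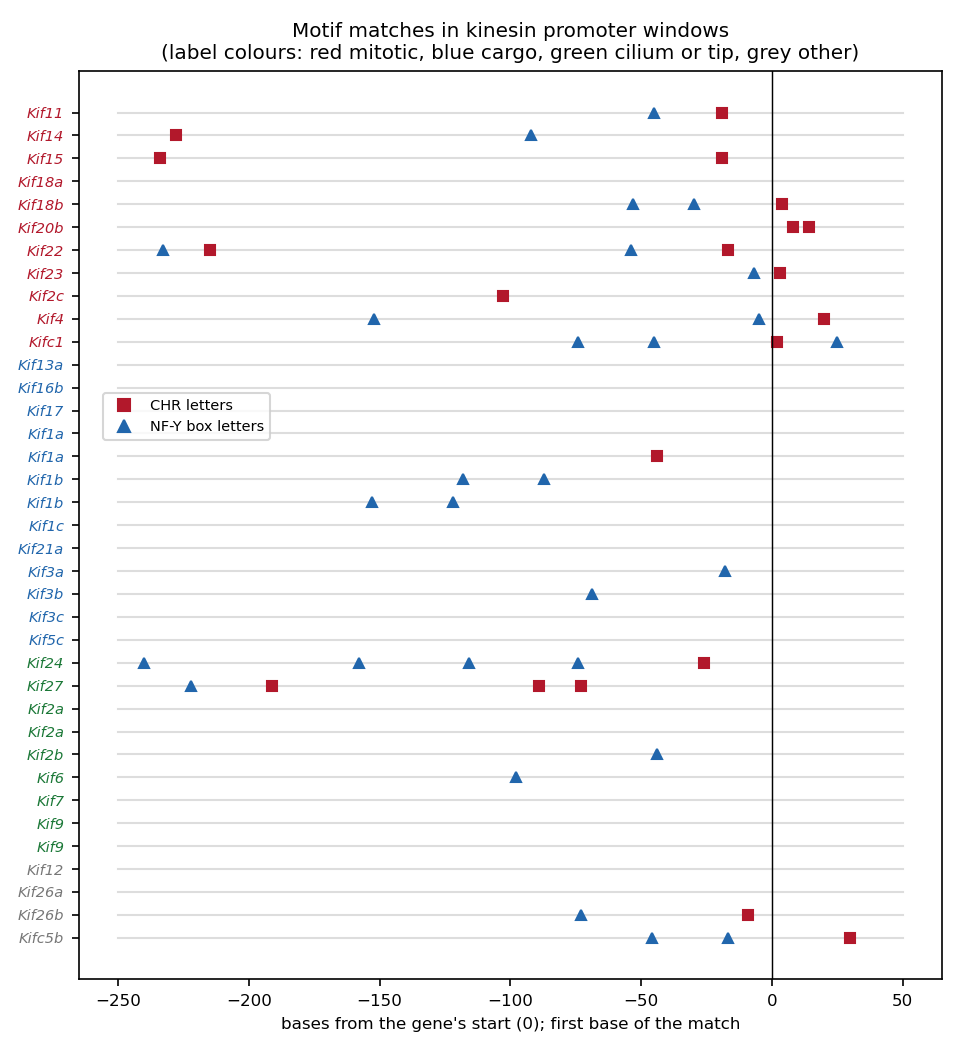
Positions of CHR letters (red squares) and NF-Y box letters (CCAAT, blue triangles) in the promoter window of each kinesin, in bases from the gene's start on the x axis; gene labels are red for mitotic motors and blue, green or grey for transport motors by role. CHR matches lie near the start in 8 of 11 mitotic windows, and most windows of transport motors hold none.

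Motors that set up the bipolar spindle rose by 1.82-fold to 2.03-fold (gene coordinates are those of the files, build GRCm39). Kif11 (chromosome 19, 37364851 to 37410307), the kinesin-5 that pushes the spindle poles apart by sliding antiparallel microtubules, stood at 65.8, 65.5 and 69.9 CPM (counts relative to library size, scaled with TMM factors) in the normoxic-EV libraries. The hypoxic-EV libraries held 133, 145 and 130.0 CPM. The groups did not overlap, and the log2 fold change was 1.01 ± 0.0540 (edgeR adjusted p = 3.48e-12). Kif15 (chromosome 9, 122780111 to 122847798), a kinesin-12 that can keep the spindle bipolar alongside Kif11, went from 27.6, 31.3 and 31.9 CPM to 53.3, 59.1 and 53.0 CPM. Its log2 fold change of 0.86 ± 0.0693 (edgeR adjusted p = 2.24e-09) was the smallest of the 12. Kifc1 (chromosome 17, 34094633 to 34109635), a minus-end-directed kinesin-14 that gathers microtubules at the poles, measured 19.4, 21.1 and 22.8 CPM with normoxic vesicles. With hypoxic vesicles it measured 45.4, 43.0 and 41.1 CPM (log2 fold change 1.02 ± 0.0738, edgeR adjusted p = 4.14e-10). Kifc1 shares sequence with Kifc5b, so its counts are uncertain: 39.7% of its 3555 different 50-base transcript windows also occur in Kifc5b or another gene.

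Chromosome-moving and microtubule-shortening motors rose as well, and this group held the highest fold of the family. Kif2c (chromosome 4, 117016836 to 117039836), the kinesin-13 that removes tubulin from microtubule ends at centromeres and so corrects wrong attachments, read 30.4, 29.9 and 34.3 CPM in the normoxic-EV libraries. In the hypoxic-EV libraries it read 78.7, 78.8 and 76.5 CPM, giving 1.30 ± 0.0617 (edgeR adjusted p = 6.93e-13). Kif18a (chromosome 2, 109111083 to 109172092) damps the oscillation of chromosomes at the metaphase plate. It had 13.998, 13.7 and 14.8 CPM against 29.4, 33.6 and 29.4 CPM, and no hypoxic-EV library fell into the normoxic-EV range (log2 fold change 1.12 ± 0.0811, edgeR adjusted p = 4.5e-10). Kif18b (chromosome 11, 102796355 to 102815950), which limits the length of astral microtubules, had 27.1, 23.6 and 28.6 CPM against 55.1, 48.3 and 50.9 CPM. Its log2 fold change was 0.96 ± 0.0746 (edgeR adjusted p = 1.45e-09). The chromokinesin Kif22 (chromosome 7, 126626901 to 126641643) sits on chromosome arms and pushes them towards the spindle equator. Its normoxic-EV libraries lay close together at 36.0, 35.6 and 35.7 CPM, and its hypoxic-EV libraries at 77.0, 71.0 and 69.3 CPM (log2 fold change 1.02 ± 0.0592, edgeR adjusted p = 1.46e-11). Kif4 (chromosome X, 99669343 to 99770820), a chromokinesin that also works with Prc1 at the spindle midzone, was as even within groups, at 29.6, 29.8 and 30.04 CPM and 60.0, 59.3 and 58.9 CPM. Its log2 fold change was 0.99 ± 0.0591 (edgeR adjusted p = 1.98e-11).

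The motors of the midzone and of cytokinesis also rose. Kif23 (chromosome 9, 61823187 to 61854056), which with Racgap1 forms the centralspindlin complex that marks the cleavage plane, was the mitotic motor with the most counts. It stood at 96.3, 98.8 and 105 CPM in the normoxic-EV libraries and at 194, 214 and 196 CPM in the hypoxic-EV libraries (log2 fold change 1.01 ± 0.0526, edgeR adjusted p = 2.6e-12). Kif20a (chromosome 18), which brings the chromosomal passenger complex to the midzone, went from 28.2, 28.8 and 30.2 CPM to 73.5, 72.1 and 68.0 CPM. Its log2 fold change of 1.29 ± 0.0607 (edgeR adjusted p = 6.91e-13) was next to that of Kif2c. Kif20b (chromosome 19, 34899761 to 34953145), a motor of late cytokinesis, had 49.8, 52.6 and 51.0 CPM and then 104, 105 and 94.5 CPM, with no overlap (log2 fold change 0.98 ± 0.0560, edgeR adjusted p = 9.89e-12). Kif14 (chromosome 1, 136394081 to 136459249) binds Prc1 and citron kinase and is needed to finish division. Its values were 16.03, 17.98 and 19.0 CPM against 37.9, 38.9 and 35.5 CPM (log2 fold change 1.08 ± 0.0768, edgeR adjusted p = 3.61e-10).

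Summed over the 12, the normoxic-EV libraries held 440.1, 448.6 and 473.5 CPM and the hypoxic-EV libraries 941.0, 967.9 and 903.4 CPM. The spread among libraries of a group was small beside the distance between groups, with means of 454.1 ± 17.4 and 937.4 ± 32.4 CPM (SD, n = 3). Within the set, the 95% intervals of Kif2c (1.17 to 1.43) and Kif20a (1.16 to 1.42) did not overlap that of Kif15 (0.72 to 1.01), although the difference between genes was not tested. Each of the 12 calls held under the 11 alternative settings run (other scalings, no count filter, a replicate block, each library left out and DESeq2).

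**Figure D3:**
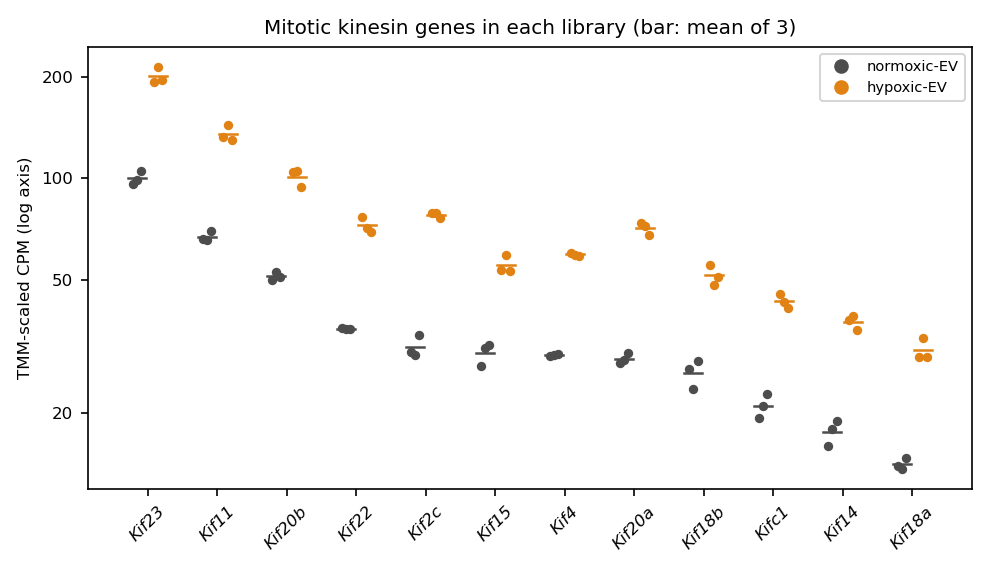
Expression of each mitotic motor in each library in CPM, on a log axis, with normoxic-EV and hypoxic-EV libraries in separate colours. For every one of the 12 genes the 3 hypoxic-EV points sit above the 3 normoxic-EV points, with Kif23 the highest.

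In the authors' deposited table of 462 genes, each with an absolute log2 fold change of at least 1.0008, 8 kinesins are listed, and all 8 are mitotic motors. The log2 fold changes in the authors' deposited table run from 1.01 for Kif23 to 1.30 for Kif2c. Of all genes tested here, 1.46% are listed there with a positive log2 fold change. Kif4, Kif20b, Kif18b and Kif15 are not in it; in the fit used here their fold changes were 1.99, 1.98, 1.94 and 1.82, under 2-fold. The list therefore holds 8 of 12 mitotic motors although all 12 were called, and the 4 left out lie under its smallest fold.

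Among the transport motors the higher calls went to genes of mixed function. Kifc5b (chromosome 17, 27136065 to 27151557) rose from 14.96, 13.8 and 15.1 CPM to 26.9, 23.9 and 26.4 CPM, without overlap between the groups (log2 fold change 0.81, edgeR adjusted p = 6.06e-08). It is a near copy of Kifc1: 1372 of the 3555 windows of 50 bases in Kifc1 also occur in Kifc5b, where 37.4% of the 3745 windows are shared, so reads of 1 gene can be counted for the other. Without it, 5 of 21 transport motors were higher and 7 lower, with a median of -0.09. Kifc3 (chromosome 8, 95826456 to 95929440), a minus-end motor of the kinesin-14 family, had 7.96, 7.94 and 6.75 CPM and 14.9, 11.8 and 13.4 CPM (log2 fold change 0.83 ± 0.115, edgeR adjusted p = 5.32e-06). Kif24, a kinesin-13 at centrioles that restrains cilium formation, went from 11.5, 9.75 and 10.6 CPM to 14.4, 15.5 and 15.7 CPM (edgeR adjusted p = 0.000188).

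The remaining 3 higher calls were small in size. Kif21b, which restrains microtubule growth as well as carrying cargo, read 55.7, 59.0 and 64.7 CPM against 80.6, 70.8 and 76.1 CPM, 1.26-fold (edgeR adjusted p = 0.000158). Kif2a, a microtubule-shortening kinesin-13 that also acts at spindle poles, read 53.2, 55.2 and 56.8 CPM against 62.1, 72.3 and 64.7 CPM, 1.204-fold (edgeR adjusted p = 0.0012). Kif16b, a carrier of early endosomes, read 33.0, 33.3 and 33.0 CPM against 39.6, 41.6 and 35.6 CPM, 1.17-fold (edgeR adjusted p = 0.00954). All 6 higher calls among the transport motors held under each of the 11 alternatives.

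The lower calls included the most abundant carriers. Kif5b (chromosome 18), a heavy chain of conventional kinesin, stood at 287, 308 and 327 CPM with normoxic vesicles and 227, 261 and 261 CPM with hypoxic vesicles. Every hypoxic-EV library was below every normoxic-EV library (log2 fold change -0.30 ± 0.0573, edgeR adjusted p = 0.000219). Kif1c (chromosome 11, 70591374 to 70622790), a kinesin-3 that carries vesicles and reaches the podosomes of macrophages, fell from 228, 222 and 213 CPM to 194, 181 and 200.02 CPM (log2 fold change -0.20 ± 0.0491, edgeR adjusted p = 0.00196). Kif13b, another kinesin-3, went from 22.2, 24.4 and 25.5 CPM to 17.2, 18.9 and 21.2 CPM (1.26-fold lower, edgeR adjusted p = 0.00375). These 3 calls held under each of the 11 alternatives. The other 4 did not. Kif3c, a kinesin-2 subunit, was called lower at 42.8, 39.0 and 45.2 against 37.8, 37.3 and 38.1 CPM (edgeR adjusted p = 0.0424), and Kif1b, a carrier of mitochondria and vesicles, at 79.3, 86.0 and 92.8 against 75.1, 80.7 and 76.7 CPM (edgeR adjusted p = 0.0381), with overlapping groups.

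Kifc2 and Kif9 were called lower at low levels. Kifc2, a kinesin-14, had 1.496, 1.99 and 1.38 CPM against 0.944, 0.868 and 0.818 CPM (log2 fold change -0.88 ± 0.267, edgeR adjusted p = 0.011), and the partly overlapping Cyhr1 on the other strand had 943% of its counts. Kif9, a kinesin-9 of motile cilia, had 3.23, 4.79 and 3.29 CPM against 2.60, 2.96 and 2.24 CPM, with an adjusted p of 0.0305 by edgeR. Leaving out normoxic-EV replicate 2 ended the calls of Kif1b, Kifc2 and Kif9, and leaving out hypoxic-EV replicate 1 or hypoxic-EV replicate 3 ended those of Kif1b, Kif3c and Kif9. With any single one of these 3 libraries left out, 4 transport motors were called lower in place of 7. Leaving out normoxic-EV replicate 3 ended the calls of Kif1b and Kif3c, and normoxic-EV replicate 1 or hypoxic-EV replicate 2 that of Kif3c. DESeq2 called 3 lower, Kif5b, Kif1c and Kif13b. Under the 11 alternatives the edgeR or DESeq2 adjusted p reached 0.264 for Kif1b, 0.249 for Kif3c, 0.219 for Kif9 and 0.0793 for Kifc2. Kif3c shares 35.3% of its exon bases with 1110002L01Rik on the other strand, which had a log2 fold change of -0.48, and the part of those reads in the value of Kif3c was not tested.

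Of the 9 transport motors tested and not called, Kif3a had the highest FPKM. This kinesin-2 subunit, which pairs with Kif3b and Kifap3 to carry cargo in cytoplasm and cilia, stood at 51.8, 53.1 and 51.0 CPM and 48.3, 52.4 and 48.5 CPM, with overlapping groups. Its 95% interval for the log2 fold change was -0.18 to 0.06 (edgeR adjusted p = 0.41), so a change of 2-fold lies outside it. Its partner Kif3b had an interval of -0.20 to 0.02 and an edgeR adjusted p of 0.161. The others not called were Kif5a, Kif5c, Kif7, Kif13a, Kif17, Kif19a and Kif21a, with log2 fold changes from -0.71 (Kif13a) to 0.68 (Kif5c). Kif5c, a neuronal conventional kinesin, had a wide interval of -0.16 to 1.53, which leaves a doubling within it.

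The remaining 9 members, all transport motors, did not pass the count filter. Kif2b, Kif6, Kif12 and Kif28 had 0 counts in all 6 libraries. A count of 0 allows a level of up to 3 counts, which is 0.129 to 0.179 CPM per library. Kif1a, the neuronal carrier of synaptic vesicle precursors, had 1 count over the normoxic-EV libraries and 8 over the hypoxic-EV libraries. Kif19b, Kif26a, Kif26b and Kif27 had 24, 52, 4 and 23 counts in total over the 6 libraries. At this depth their levels could not be compared. Since filtering depends on counts, the fold changes above cover 34 of 43 kinesins.

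Levels of different kinesins were compared by the authors' FPKM, a level per gene length and library total. With normoxic vesicles the order was led by carriers: Kif5b at 38.4 ± 2.59 and Kif1c at 30.3 ± 0.988 FPKM (mean ± SD, n = 3), followed by Kif3a at 14.5 ± 0.309 and Kif23 at 12.7 ± 0.615. With hypoxic vesicles Kif5b stood at 31.2 ± 2.12, Kif1c at 26.3 ± 1.41 and Kif23 at 25.5 ± 1.26 FPKM, so Kif1c and Kif23 lay within 1 SD of each other. Kif11 went from 8.98 ± 0.336 to 18.2 ± 0.983 FPKM and passed Kif3a, at 13.8 ± 0.582. The 12 mitotic motors summed to 75.0 ± 3.02 FPKM with normoxic vesicles and 157 ± 5.71 with hypoxic vesicles. Their share of all kinesin FPKM went from 34.3 ± 0.625% to 53.4 ± 1.08%. The cargo carriers summed to 128 ± 3.02 and 116 ± 1.25 FPKM, with each hypoxic-EV library below each normoxic-EV library, and their share went from 58.55% to 39.6%. Kif5b and Kif1c, the highest of the carriers, both fell, and most of the drop in the sum lies in these genes. Of the 16 cargo carriers tested, 3 were called higher (18.8%), 6 lower (37.5%) and 7 not called. Of the 6 lower calls, those of Kif5b, Kif1c and Kif13b held under every alternative setting, and those of Kif1b, Kif3c and Kifc2 did not. Over all genes tested, 22.7% were higher and 21.5% lower. The 43 kinesins together summed to 219 ± 5.86 and 294 ± 4.91 FPKM. These sums carry no test.

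**Figure D4:**
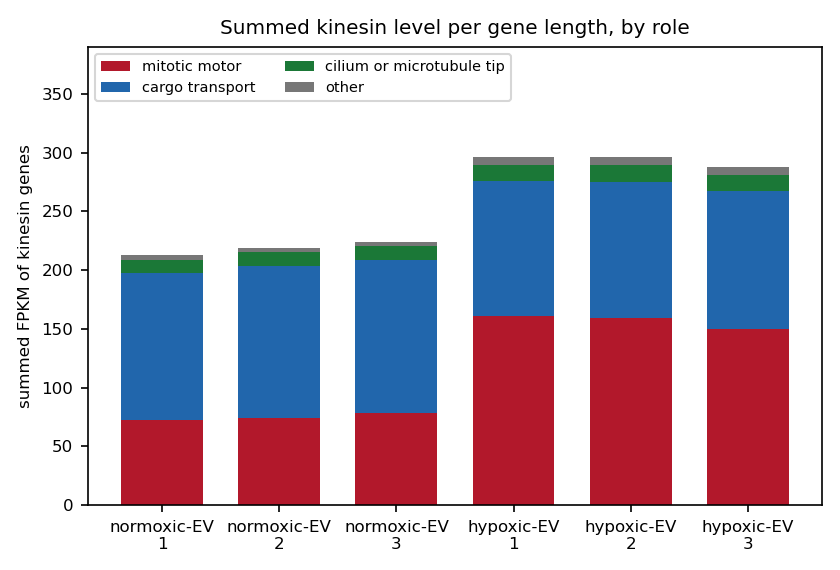
Summed FPKM of the kinesin genes in each library (bars from 0), divided by role into mitotic motors, cargo transport, cilium or microtubule tip, and other. Mitotic motors sum to 72.8 to 78.4 FPKM in the normoxic-EV libraries and 150.2 to 161 in the hypoxic-EV libraries, while cargo transport sums to 125 to 130.1 and 115 to 117, with no overlap between the groups.

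Genes that work with these motors were read from lists of names, and the lists were chosen with earlier results of these data known. All 21 spindle and midzone partners were called higher, beside 22.7% of all genes tested. Their median log2 fold change was 0.92 (range 0.27 to 1.45). Anln, which builds the contractile ring, was 1.14 higher (edgeR adjusted p = 6.93e-13), and the mitotic kinase Plk1 1.45 (edgeR adjusted p = 8.07e-13). Aurka, the spindle-pole kinase, was 1.17 higher and Nusap1, a microtubule bundler, 1.11. Direct partners of named motors were among them: Prc1, which recruits Kif4 and Kif14, at 1.32, Racgap1, which pairs with Kif23, at 0.69, and Tpx2, which binds Kif11 and Kif15, at 0.90. Cenpe, the kinetochore kinesin that the name rule leaves out, had 64.9, 66.4 and 70.3 CPM against 132, 141 and 117 CPM (log2 fold change 0.95, edgeR adjusted p = 9.45e-11). It therefore lay in the range of the 12 mitotic motors.

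Of 19 regulators of G2 and M phase transcription, 12 were called higher (63.2%), 1 lower (5.26%) and 6 not called, with a median of 0.29. Over all genes tested, 22.7% were higher and 21.5% lower. The list holds activators and repressors alike. Foxm1, an activator of these genes, was 0.97 higher (edgeR adjusted p = 1.33e-11). E2f8, which encodes a repressor, was 0.90 higher, Mybl2, which encodes B-Myb, 0.62 and E2f2 0.57. The lower one was the NF-Y subunit Nfyb (-0.19). Of 11 tubulins tested, 5 were higher (45.5%) and 6 not called, with a median of 0.07. Tubb5 (0.72), Tubb4b (0.58), Tuba1b (0.52) and Tubb6 (0.34) were among the higher ones, and near-identical copies make the assignment of reads to single tubulins uncertain.

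Among partners of the carriers, more genes were called lower than higher. Of 15 light chains, accessory subunits and cargo adaptors tested, 1 was higher (6.67%), 5 lower (33.3%) and 9 not called, with a median of -0.03, beside 22.7% higher and 21.5% lower over all genes tested. Rhot1, which links mitochondria to motors, fell by 0.40 on the log2 scale (edgeR adjusted p = 7.9e-07), Arl8a, which links lysosomes to kinesin, by 0.40 and the light chain Klc2 by 0.35. Mapk8ip3, an adaptor of kinesin-1, fell by 0.26. The light chain Klc1 was not called, at 103, 103 and 102 CPM against 107, 109 and 102 CPM (95% interval of the log2 fold change -0.06 to 0.15). Of 23 genes of dynein and dynactin, the minus-end motor and its cofactor, 1 was higher (4.35%), 7 lower (30.4%) and 15 not called, with a median of -0.04. The higher one, Nde1 (0.48), encodes a dynein regulator that also acts in mitosis, and Dctn4 (-0.46), a dynactin subunit, was the lower one with the smallest edgeR adjusted p (1.24e-07).

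**Figure D5:**
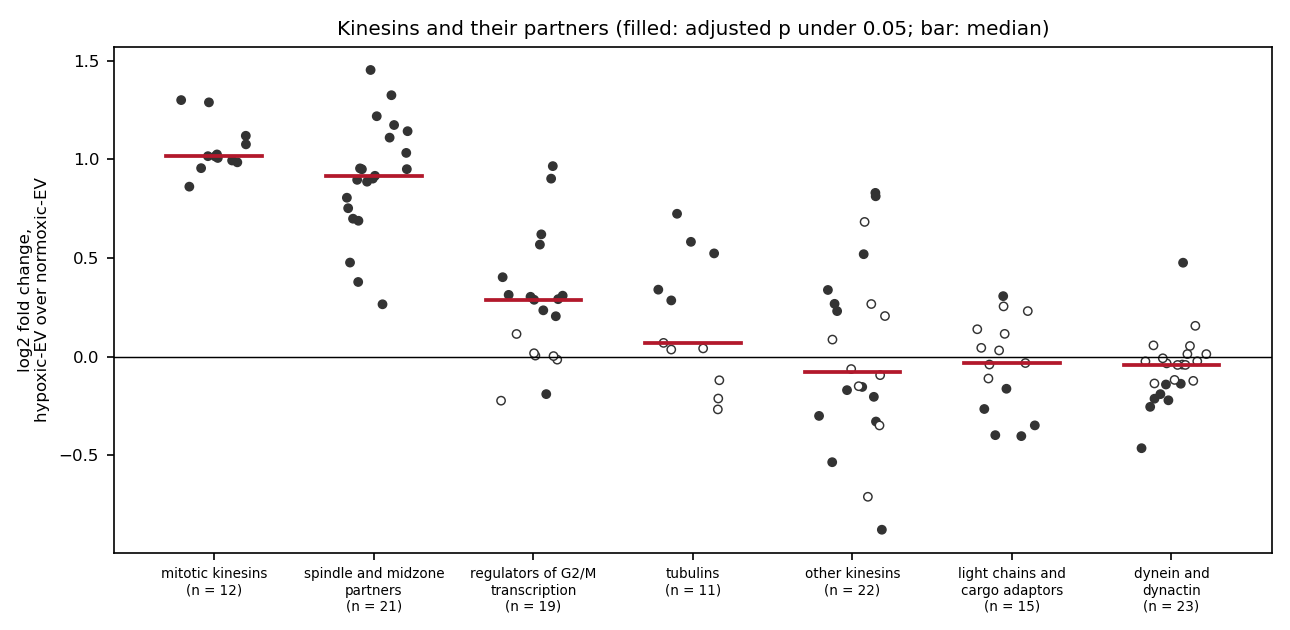
Log2 fold change (hypoxic-EV over normoxic-EV, y axis) of each tested gene of the mitotic kinesins, the other kinesins and 5 lists of related genes; filled points passed an adjusted p of 0.05 and bars are medians. Mitotic kinesins (median 1.02) and spindle and midzone partners (0.92) lie above 0, while the medians of other kinesins (-0.08), light chains and adaptors (-0.03) and dynein and dynactin (-0.04) lie just below it.

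Reads of overlapping genes cannot be told apart where the strand setting is unknown, which bears on Kif20a and Kif4. Kif20a shares 29.3% of its exon bases with Cdc23 on the other strand, which had 104% of its counts and a log2 fold change of 0.015. Kif4 shares 15.1% with Pdzd11, which had 80.1% of its counts and a log2 fold change of -0.23. Cdc23 was not called and Pdzd11 was called lower (edgeR adjusted p = 0.00631). The part of their reads in the values of Kif20a and Kif4 was not tested. Of the kinesins not yet discussed for overlap, Kif2a shares 19.2% with Dimt1 (log2 fold change -0.13). Overlaps were read from GENCODE M21 by gene identifier.

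Libraries held 16751665 to 23422328 counts. The macrophage identity was checked with 9 markers, of which 9 passed the filter. Their summed level was 10417 to 10852 CPM with normoxic vesicles and 8448 to 8845 CPM with hypoxic vesicles. Lyz2 alone averaged 7946 and 6091 CPM, so most of the sum and of its fall is this gene. Of the 9, 2 were called higher (22.2%, Csf1r at 1.02 among them) and 6 lower (66.7%, Adgre1 at -0.80 among them). Over all genes tested, the shares were 22.7% and 21.5%. Of 10 tendon or stromal markers none passed the filter and 4 (Tnmd, Col1a2, Col3a1 and Thbs4) had 0 counts in every library. The summed level of the 10 was 0.957 to 1.87 and 0.817 to 1.36 CPM. The part of the shift in macrophage markers in the kinesin values was not tested.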

How the data were processed

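Poly(A) RNA of 6 libraries, 3 per group, was sequenced in pairs on an Illumina HiSeq, per the labels' protocols. Build GRCm39 and the tools HISAT2, featureCounts and DESeq2 appear in the submitters' processing notes. The sources used here give no versions, annotation, strand setting or rule for multi-mapping reads. The deposited gene counts are whole numbers. For all 26398 genes with counts, the deposited FPKM was the count over the library's total and over 1 gene length (relative tolerance 1e-06). The authors' comparison table gives log2 fold changes, and the deposited p-values and adjusted p-values stand beside them. A deposited table of normalized counts was not used here.

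Counts of all 57010 genes were filtered with filterByExpr (minimum count 10, minimum total 15), which kept 13303. They were scaled with TMM and tested with edgeR 4.0.16 (two-sided quasi-likelihood F-test, R 4.3.3), with p-values adjusted over all 13303 genes. Standard errors were taken as the absolute log2 fold change over the square root of F, and 95% intervals from the same fit. The script was tested on simulated data. CPM are edgeR's counts relative to library size, scaled with TMM factors. Alternatives were median-of-ratios size factors, library totals, no filter, a replicate block, each library left out and DESeq2 1.42.0. Library totals of 16751665 to 23422328 limit precision for genes with few counts. Pairs of libraries of 1 group differed by 2.72 to 5.84 times counting noise (chi-square per degree of freedom), so none was treated as a repeat of another.

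Every kinesin is accounted for. Library values are given for mitotic motors that passed the filter and for other kinesins that were called or are among the 5 highest by mean FPKM. From related lists, up to 4 members with the smallest adjusted p and partners of a named motor are named. Members and lists were chosen with earlier results of these data known. Promoters came from RefSeq (GRCm38.p6) and were not joined to coordinates of the files; coordinates of genes are those of the deposited tables. Protein sequences were not used here. Not every exon overlap of a kinesin is reported here.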

Additional observations from a re-analysis of the deposited data

How the results depend on the processing

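All 12 mitotic motors were called higher under each of the 11 alternatives, and their median log2 fold change stayed between 1.0 and 1.05. Of 286 values of 26 named kinesins under the alternatives, 266 kept their direction and their side of the threshold, 20 lost the call and 0 reversed. The 20 belong to Kif1b, Kif3c, Kif9 and Kifc2. The number of transport motors called lower, 7 in the fit reported, was 3 with DESeq2, 5 with no count filter, 8 with median-of-ratios size factors, 7 with library totals alone and 4 to 7 when each library was left out in turn; these leave-one-out fits have fewer samples. The number called higher was 6 or 7.

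With a replicate block the numbers were 12 mitotic motors higher, 6 transport motors higher and 6 lower, and among the named kinesins the block ended the call of Kif3c (log2 fold change -0.17, edgeR adjusted p = 0.0555). Samples of the same number did not deviate together (correlations -0.019, -0.035 and -0.022), so the samples share only a number, and no library correlated best with its own number. Depth limits Kifc2 and Kif9, at 0.818 to 4.79 CPM, and the 9 kinesins below the filter.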

Other observations

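Genes named like kinesins but outside the rule had few counts where they are pseudogenes. Kif22-ps and Kif4-ps had 0 counts in all 6 libraries and Kifc5c-ps had 1. The antisense RNA Kif16bos had 6 counts in total. Kifap3, the subunit that joins Kif3a and Kif3b to cargo, had 8198 counts and Kifbp, a protein that binds kinesin motor domains, had 5525, and both are counted among the adaptors above.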
